A study of Mus musculus with 12 samples.

Results

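Imprinted genes outside the Snrpn cluster were followed across 12 end-stage lymphomas, 6 of them Smchd1 null and 6 Smchd1 wildtype. The set was a list of 49 gene names, among them IGF2R, CDKN1C, DLK1, PEG3 and GNAS, and every array probe whose target carried a listed name was taken, with letter case ignored. 48 of the 49 names had a probe, 110 of the 45281 probes on the array in all, and no probe was named WT1. The tumours formed in C57BL/6 mice transgenic for Eµ-Myc, a construct that drives Myc from the immunoglobulin heavy chain enhancer in cells of the B lineage. Both genotypes carried that transgene. The null lymphomas were homozygous for a gene trap allele of Smchd1, and the wildtype lymphomas did not carry it. All tumour cells were purified by cell sorting, and neither the sort markers nor the age of the animals stands in the labels. Whether replicates were separate animals is not stated, and p-values here reflect the spread between the samples as labelled, which may be technical.

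An imprinted gene is transcribed mainly from the copy inherited from the mother or mainly from the copy inherited from the father. Many such genes lie in clusters, where a control region that is DNA-methylated on a single parental copy sets which copy is used. Others stand alone, and some are imprinted without such a methylation mark. Many of them act on fetal growth and fall silent in most adult blood cells. SMCHD1 is a chromatin protein of the SMC family that is needed for silencing on the inactive X chromosome and at several autosomal gene clusters, including some imprinted ones. The arrays measured total RNA of each gene and do not separate the parental alleles, and fewer cells of a type cannot be told apart from less RNA per cell.

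Levels are log2 fluorescence intensities after background correction and quantile normalization, and a probe counted as detected on an array where its detection p-value against the negative control beads was under 0.05. The arrays detected 14905 to 17724 probes. The arrays sat on 2 BeadChips with 3 lymphomas of each genotype on each, and the mean raw intensity was 523.9 to 599.2 on BeadChip 1 and 254.7 to 468.8 on BeadChip 2. The targeted gene followed its labels. The brightest Smchd1 probe lay between 5.15 and 6.95 in null lymphomas and between 9.57 and 10.50 in wildtype lymphomas. Of the marker lists for B, T, NK, erythroid, macrophage, neutrophil, and stromal and endothelial cells, 0 genes passed the test between genotypes. An unadjusted limma p under 0.05 was reached by 1 of 4 NK cell markers tested and 1 of 7 macrophage markers tested. The share over all genes tested was 1.46%. Higher in null were 6 of 6 erythroid, 6 of 6 neutrophil, 5 of 7 macrophage and 2 of 4 stromal and endothelial markers tested. So were 3 of 8 T cell, 0 of 6 B cell and 0 of 4 NK cell markers. The list medians ran from -0.76 for NK cells to 0.62 for erythroid cells. The mean level of 6 B cell markers was 7.98 in null 2 and 8.13 in wildtype 2, and at least 9.70 in the other lymphomas, so these 2 lymphomas stood apart within their own genotypes.

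The lymphomas expressed only part of the imprinted set. 33 of the 48 members were detected on at least 1 array. 12 members were detected on all 12 arrays, 12 on 3 to 11 arrays, 9 on 1 or 2 arrays, and 15 on none. As shares these were 25%, 25%, 18.8% and 31.2% of the members, against 27.5%, 17.7%, 15.1% and 39.7% of the 28698 genes with a probe. The number of members detected on an array was 17 to 19 in null lymphomas and 16 to 20 in wildtype lymphomas. The ranges overlapped throughout, with a median of 18 in null and 17.5 in wildtype lymphomas.

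Of the 28 members reported as maternally expressed, 20 were detected on at least 1 array and 10 on all 12 arrays. These 10 were Igf2r, Cd81, Tspan32, Nap1l4, Tssc4, Copg2, Blcap, Gnas, H13 and Commd1. Of the 20 members reported as paternally expressed, 13 were detected and 2 were detected on all 12 arrays, namely Impact and Inpp5f. The allele is taken from what is known of mouse tissues and was not measured here, and for several of these genes imprinting is known only in particular tissues. No array detected the paternally expressed Mest, Peg10, Sgce, Plagl1, Usp29, Nap1l5 or Sfmbt2, or the maternally expressed Ascl2, Phlda2, Zim1, Asb4, Calcr, Dlx5, Gatm or Dcn. Several of these 15 are known for roles in placenta, mesoderm or skeleton. PEG10 and ASCL2 are needed for the placenta, DLX5 is a homeodomain factor of bone and the branchial arches, and DCN is the matrix proteoglycan decorin.

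**Figure D1:**
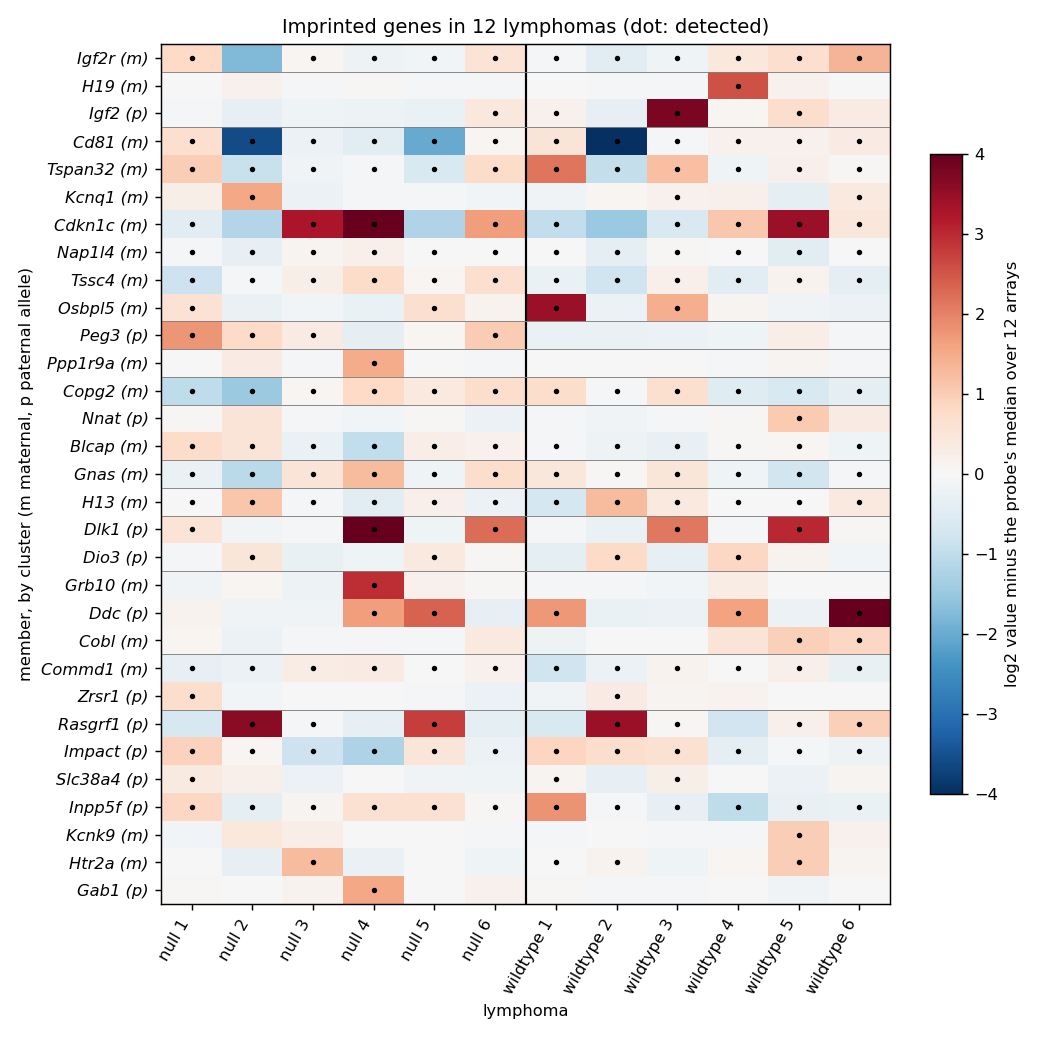
Level of the 31 members whose brightest probe was detected on at least 1 array, in the 6 null lymphomas (left) and the 6 wildtype lymphomas (right), as the log2 value minus that probe's median over the 12 arrays, with a dot where the probe was detected. Rows such as Cdkn1c, Dlk1, Ddc and Rasgrf1 are high in single lymphomas of both genotypes, while Nap1l4 and Commd1 are even.

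23 members had a probe detected on at least 3 arrays and were tested, through the brightest such probe of each gene. Cobl was detected on 3 arrays but by different probes, and was not tested. In limma's test over 12822 genes, 0 of the 23 members passed an adjusted p of 0.05, and each had an adjusted p of 1.00. Over the whole array 0.0234% of genes passed, namely Smchd1 and C030034I22Rik, lower in null, and Mkrn3 of the Snrpn cluster, higher in null. Probe by probe, 0 of the 39 tested probes of members passed, against 0.0159% of the 18921 probes tested. Peg3, which passed the detection filter through null lymphomas alone, was the 1 member of 23 with an unadjusted p under 0.05, against 1.46% of all genes. 0 of 23 members had groups that did not overlap, against 0.0858% of all genes. 12 members were higher and 11 lower in null, with a median difference of 0.017 log2 units, against -0.00046 over all genes tested. With no filter on detection, 23 of the 48 members were higher in null and the median was -0.0065.

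**Figure D2:**
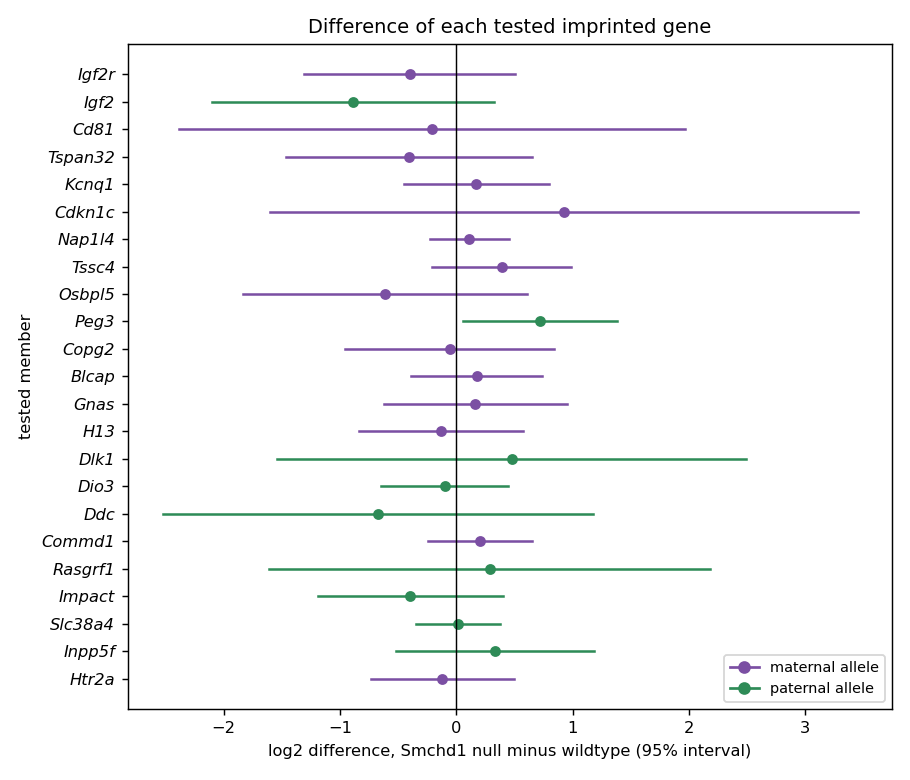
Difference in log2 intensity, Smchd1 null minus wildtype, for the 23 tested members, with points for the estimate and bars for its 95% interval from limma (6 lymphomas per genotype). The intervals of 22 members include 0, the interval of Peg3, which was detected in null lymphomas alone, runs from 0.05 to 1.38 before any adjustment, and the widest is that of Cdkn1c.

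Many of the tested members varied widely between lymphomas of the same genotype, which is given here as a description. The median SD within a genotype was 0.68 log2 units over the 23 tested members and 0.48 over all genes tested. 7 of the 23 lay above the 90th percentile of all genes, namely Cdkn1c, Cd81, Dlk1, Rasgrf1, Ddc, Osbpl5 and Igf2. 5 of the 23 lay in the lower part of the distribution, under its median, namely Nap1l4, Slc38a4, Commd1, Dio3 and Blcap. Of these, Slc38a4 and Dio3 were detected on only 3 and 4 arrays and lay near background, where differences are compressed.

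**Figure D3:**
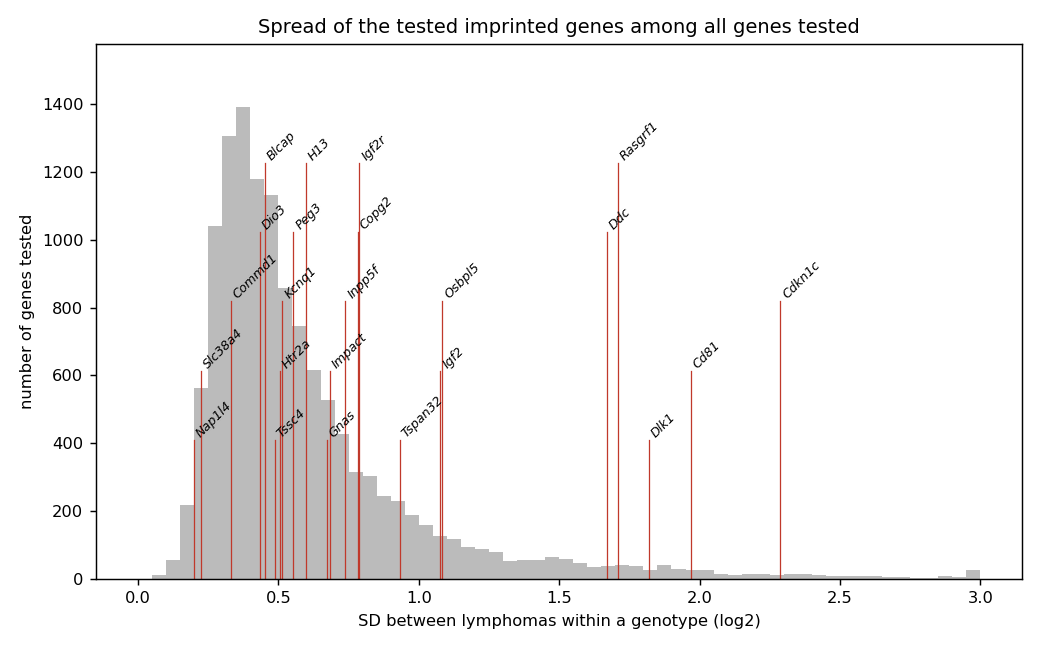
Distribution of the SD between lymphomas within a genotype (log2 units, values above 3 drawn in the last bin) over the 12822 genes tested, with red lines at the 23 tested members; line height only separates the names. Nap1l4 at 0.20 and Cdkn1c at 2.29 mark the ends of the members' range.

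In the H19-Igf2 domain of chromosome 7, H19, a maternally expressed noncoding RNA, was silent in all but a single tumour. Both H19 probes were detected in wildtype 4 alone, at 7.03 and 5.65. The brighter probe lay between 4.39 and 4.67 in the 6 null lymphomas and between 4.41 and 4.66 in the other wildtype lymphomas, with no detection. Igf2, the paternally expressed insulin-like growth factor of the same domain, was detected in 1 null and 3 wildtype lymphomas, and it was not detected in wildtype 4. Its lowest, median and highest values were 4.38, 4.50 and 5.11 in null lymphomas, against 4.36, 4.95 and 8.46 in wildtype lymphomas. The difference was -0.89 ± 0.56 log2 units (SE), and without wildtype 3, the lymphoma at 8.46, it was -0.29. The high tumour for H19 and the high tumour for Igf2 were thus different lymphomas of the same genotype.

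Igf2r, the receptor that clears IGF2 and carries lysosomal enzymes, lies in its own cluster on chromosome 17. Its brightest probe read 5.08, 6.84 and 7.64 as lowest, median and highest in null lymphomas, against 6.44, 7.02 and 8.20 in wildtype lymphomas. The difference was -0.40 ± 0.42 log2 units, with overlapping groups. The lowest lymphoma, null 2, was under detection for that probe and detected by the other Igf2r probe at 5.21.

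The Kcnq1 domain of chromosome 7 holds 10 members, all reported as maternally expressed, and 4 of them, Cd81, Tspan32, Nap1l4 and Tssc4, were detected in every lymphoma. CD81 is a tetraspanin of the cell surface found on many cell types, and TSPAN32 is a tetraspanin of blood cells. Their levels moved together across lymphomas, so the 250 bases before each annotated start are shown, from RefSeq on GRCm38.p6, with CG dinucleotides in capitals. The Cd81 window is chr7:143052500-143052749 and the Tspan32 window chr7:143004796-143005045, both on the plus strand.
Cd81: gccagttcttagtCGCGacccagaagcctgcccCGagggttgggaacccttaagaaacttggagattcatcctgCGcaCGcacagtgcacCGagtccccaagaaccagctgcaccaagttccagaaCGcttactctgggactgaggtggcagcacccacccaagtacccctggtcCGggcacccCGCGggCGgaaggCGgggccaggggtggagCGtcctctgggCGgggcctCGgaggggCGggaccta
Tspan32: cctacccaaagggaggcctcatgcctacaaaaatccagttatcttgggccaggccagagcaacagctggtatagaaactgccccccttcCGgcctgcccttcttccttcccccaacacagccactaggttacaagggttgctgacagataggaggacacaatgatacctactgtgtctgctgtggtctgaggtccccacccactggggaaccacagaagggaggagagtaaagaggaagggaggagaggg
The Cd81 window held 16 CG dinucleotides and the Tspan32 window 1. 25.4% of all 32851 promoter windows in the table held at least 16, and 92.1% at least 1.

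Cd81 read 8.88, 12.12 and 13.13 as lowest, median and highest in null lymphomas, against 7.09, 12.63 and 12.99 in wildtype lymphomas. It was lowest in wildtype 2, null 2 and null 5, and lay between 12.02 and 13.13 in the other lymphomas of both genotypes. The genotype difference of -0.21 ± 1.01 log2 units was far under that spread. With 1 lymphoma left out at a time it ran from -1.14 to 0.32, and its sign turned without null 2, null 5 or wildtype 1. Tspan32 read 8.52, 9.31 and 10.39 in null lymphomas, against 8.46, 9.53 and 11.55 in wildtype lymphomas, a difference of -0.41 ± 0.49. Its 3 lowest lymphomas were the same 3 as for Cd81.

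6 pairs of members lay in the same cluster with both genes detected on at least 10 arrays, and all were pairs of the Kcnq1 domain. After removal of genotype and BeadChip means, Cd81 and Tspan32 correlated across the 12 lymphomas with Pearson's r of 0.811 (permutation p = 0.00066, adjusted over the 6 pairs 0.00396) and Spearman's rho of 0.874 (permutation p = 0.00043, adjusted 0.00258). Without wildtype 2 and null 2, the 2 lymphomas farthest from the median of Cd81, r was 0.844. Within BeadChip 1 it was 0.969 and within BeadChip 2 0.892, over 6 lymphomas each. Correlations of this size were not rare on these arrays. Of the 8960 other genes detected on at least 10 arrays, 3.24% reached at least the same r with Cd81 and 3.6% with Tspan32. The mean of the 6 B cell markers was lowest in the same 3 lymphomas, at 7.98 in null 2, 9.70 in null 5 and 8.13 in wildtype 2. Null 4 lay close to null 5 on that mean, at 9.78, while Cd81 was 12.02 in null 4 and 10.44 in null 5. The part of the B cell marker mean in the relation was not tested.

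Cd81 and Nap1l4 gave r of 0.674 (permutation, adjusted p 0.0475) but rho of 0.238 (permutation, adjusted p 0.564), and r was 0.0076 without wildtype 2 and null 2, so that relation rested on those lymphomas. The other 4 pairs had adjusted permutation p-values for r from 0.321 to 0.769.

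**Figure D4:**
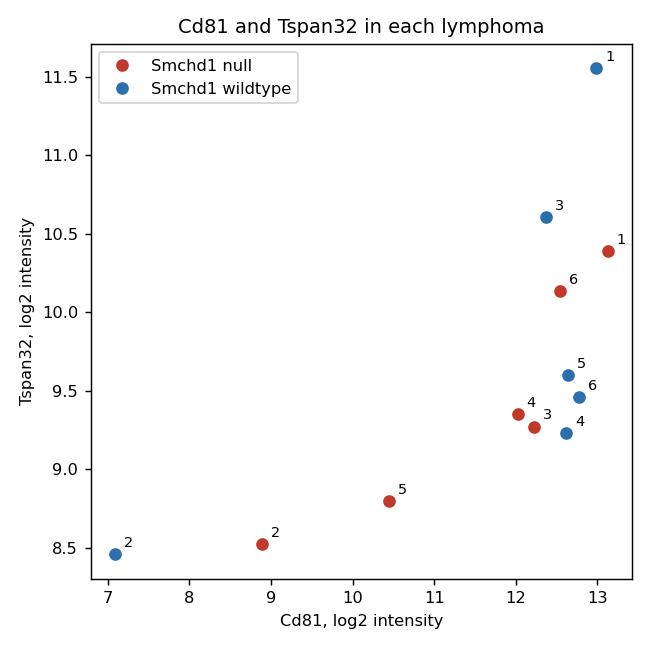
Log2 intensity of Cd81 (horizontal axis) and Tspan32 (vertical axis) in the 6 null and 6 wildtype lymphomas, with replicate numbers beside the points. The lymphomas wildtype 2, null 2 and null 5 are lowest for both genes, and the colours are mixed along the whole range.

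Cdkn1c, the cyclin-dependent kinase inhibitor p57, had the widest spread of the tested members. It read 4.79, 6.61 and 11.38 as lowest, median and highest in null lymphomas, against 4.53, 5.92 and 9.46 in wildtype lymphomas. The null values were 5.56, 4.82, 9.26, 11.38, 4.79 and 7.66 in replicates 1 to 6, and the wildtype values 5.01, 4.53, 5.40, 7.08, 9.46 and 6.44. Each genotype thus held lymphomas near background and lymphomas with strong signal. The difference was 0.92 ± 1.17 log2 units, and without null 4 it was 0.10. A 95% interval from -1.60 to 3.45 shows how wide a genotype difference these 12 arrays could have hidden.

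Nap1l4, a nucleosome assembly protein and a neighbour in the domain, was the most even tested member. It read 12.33, 12.66 and 12.85 in null lymphomas, against 12.23, 12.64 and 12.70 in wildtype lymphomas, with a difference of 0.11 ± 0.16. Its SD was at the 2.09th percentile of all genes and that of Cdkn1c at the 99.0th. Tssc4 read 6.51, 7.50 and 8.07 in null lymphomas, against 6.54, 7.05 and 7.54 in wildtype lymphomas, a difference of 0.39 ± 0.28. The second Tssc4 probe, also detected in every lymphoma, gave a difference of 0.01 ± 0.29.

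Osbpl5, an oxysterol-binding protein relative, was detected in 2 lymphomas of each genotype. Its highest value was 5.35 in null lymphomas, against 8.14 in wildtype lymphomas, in wildtype 1. The difference was -0.61 ± 0.56, and without wildtype 1 it was -0.07. The second Osbpl5 probe was detected on no array and read 4.59 in wildtype 1. The brighter probe of the potassium channel gene Kcnq1 was near background apart from null 2 at 6.36, against at most 5.19 in wildtype lymphomas. Its difference was 0.17 ± 0.29. The second Kcnq1 probe did not follow: it was lowest of the 12 in null 2, at 4.31, and detected only in null 3 at 5.20 and null 6 at 5.01. Slc22a18 was detected in null 2 alone, by the dimmer of its 2 probes.

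Peg3, a paternally expressed zinc finger gene on chromosome 7, was detected in 4 null lymphomas and in 0 wildtype lymphomas. The 250 bases before its annotated start are shown because it was the tested member with detection in a single genotype, with CG dinucleotides in capitals, from RefSeq GRCm38.p6, chr7:6730420-6730669, minus strand.
Peg3: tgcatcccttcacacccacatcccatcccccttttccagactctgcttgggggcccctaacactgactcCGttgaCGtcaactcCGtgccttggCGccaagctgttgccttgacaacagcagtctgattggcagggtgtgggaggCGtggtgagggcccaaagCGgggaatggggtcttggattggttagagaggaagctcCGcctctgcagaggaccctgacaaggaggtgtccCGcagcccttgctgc
The window held 8 CG dinucleotides, and 43.0% of all windows held at least as many. In null lymphomas Peg3 read 4.46, 5.37 and 6.59 as lowest, median and highest, against 4.57, 4.62 and 5.10 in wildtype lymphomas. The groups overlapped, since null 4 at 4.46 was the lowest of all 12 and wildtype 5 at 5.10 lay above null 4 and null 5. The difference was 0.72 ± 0.31 log2 units, with a limma unadjusted p of 0.0361 and an adjusted p of 1.00. Peg3 entered the test through its detections in null lymphomas alone, so a difference in that direction was built into its selection and these values are a description. The null mean was 5.42 and the wildtype mean 4.71. Since no wildtype lymphoma was above background, the wildtype mean is poorly measured. With wildtype values raised to the dimmest detected probe of their array, that mean was 4.99 and null was 1.35-fold higher. Null 4 and null 5, also under detection, were left as measured, so this ratio is a description and no lower bound. Without background correction the difference was 0.27 log2 units. The other 2 Peg3 probes, and all probes of its neighbours Usp29 and Zim1, were detected on no array.

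Dlk1, a paternally expressed membrane ligand of the Notch ligand family known from fetal tissues, lies with Dio3 and Rtl1 in the Dlk1-Dio3 domain of chromosome 12. Its promoter window is shown because both its probes were highest in the same 4 lymphomas, from RefSeq GRCm38.p6, chr12:109452573-109452822, plus strand, with CG dinucleotides in capitals.
Dlk1: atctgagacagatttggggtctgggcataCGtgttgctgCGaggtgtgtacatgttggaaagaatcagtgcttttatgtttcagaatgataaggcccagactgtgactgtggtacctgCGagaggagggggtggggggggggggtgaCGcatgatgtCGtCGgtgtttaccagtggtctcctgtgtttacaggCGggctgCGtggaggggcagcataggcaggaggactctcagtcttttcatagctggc
The window held 8 CG dinucleotides. The brighter Dlk1 probe was detected in 3 null and 2 wildtype lymphomas. It read 4.42, 4.81 and 9.84 as lowest, median and highest in null lymphomas, against 4.33, 4.58 and 7.62 in wildtype lymphomas. The high lymphomas were null 4 at 9.84, null 6 at 6.83, wildtype 5 at 7.62 and wildtype 3 at 6.69. The second probe was also highest in these 4, at 8.15 in null 4, 5.08 in null 6, 5.82 in wildtype 5 and 5.20 in wildtype 3. The difference was 0.48 ± 0.93 log2 units, and it was -0.32 without null 4.

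Dio3, the deiodinase that inactivates thyroid hormone, was near background, between 4.57 and 5.35 in null lymphomas and between 4.52 and 5.71 in wildtype lymphomas, a difference of -0.10 ± 0.25. Rtl1, a retrotransposon-derived gene of the placenta, was detected in null 2 alone. Meg3, the maternally expressed noncoding RNA of the same domain, is not among the 48 and was chosen for mention after its values were seen. It was detected on all 12 arrays, between 5.56 and 6.87 in null lymphomas and between 5.80 and 6.45 in wildtype lymphomas. The 12 values of Meg3 spanned 1.30 log2 units and those of Dlk1 5.51.

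In the Grb10 cluster of chromosome 11, Ddc, the aromatic amino acid decarboxylase, was detected in 2 null and 3 wildtype lymphomas. It read 4.38, 4.69 and 7.06 in null lymphomas, against 4.41, 5.37 and 9.72 in wildtype lymphomas. Its high lymphomas were null 4 at 6.35, null 5 at 7.06, wildtype 1 at 6.42, wildtype 4 at 6.30 and wildtype 6 at 9.72. The second Ddc probe was detected in the same 5, at 6.43, 6.90, 6.95, 5.42 and 8.47 in that order. The difference of -0.67 ± 0.86 log2 units turned to 0.08 without wildtype 6. The mean of 4 NK cell markers lay between 4.51 and 5.57 in null lymphomas and between 4.75 and 7.55 in wildtype lymphomas, with 7.55 in wildtype 1 and 7.08 in wildtype 6. Its part in the Ddc values was not tested. Klrb1c and Klre1 of that list were detected in 0 null lymphomas, and in 4 and 3 wildtype lymphomas, so they passed the detection filter through wildtype lymphomas alone. A difference in that direction was thus built into their selection. Klrb1c was the NK cell marker with an unadjusted limma p under 0.05. Its groups did not overlap, which held for 0.0858% of all genes tested. The other tested markers, Nkg7 and Klrd1, were detected in 5 and 4 lymphomas of each genotype.

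Grb10, a maternally expressed adaptor that dampens insulin and IGF1 receptor signalling, was detected in null lymphomas alone. Its brightest probe read 7.57 in null 4, between 4.39 and 4.78 in the other null lymphomas, and between 4.50 and 4.90 in wildtype lymphomas. A second Grb10 probe was detected in 2 null lymphomas, at no more than 4.97. Cobl, an actin nucleator next to Grb10, was detected in 1 null and 2 wildtype lymphomas, by different probes, and at no more than 5.22 in null and 5.50 in wildtype lymphomas.

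Rasgrf1, a paternally expressed exchange factor for RAS on chromosome 9, split both genotypes. Its window is shown because 2 of its 5 probes singled out the same 3 lymphomas, from RefSeq GRCm38.p6, chr9:89909525-89909774, plus strand, with CG dinucleotides in capitals.
Rasgrf1: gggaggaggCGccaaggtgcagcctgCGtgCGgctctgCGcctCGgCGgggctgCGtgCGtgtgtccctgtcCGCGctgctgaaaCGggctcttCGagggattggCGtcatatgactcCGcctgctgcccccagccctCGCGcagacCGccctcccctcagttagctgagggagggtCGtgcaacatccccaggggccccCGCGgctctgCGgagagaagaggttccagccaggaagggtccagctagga
The window held 21 CG dinucleotides, and 16.3% of all windows held at least as many. Rasgrf1 read 4.50, 4.95 and 8.74 as lowest, median and highest in null lymphomas, against 4.37, 5.26 and 8.61 in wildtype lymphomas. It was strong in null 2 at 8.74, null 5 at 7.89 and wildtype 2 at 8.61, and at most 6.09 in the others. A second probe read 8.05, 7.35 and 8.19 in these 3 lymphomas and at most 5.65 in the others. Another probe did not follow: it was detected in null 2 at 5.28 and null 3 at 5.07. It read 4.35 in both null 5 and wildtype 2. The remaining probes were detected on no array. The genotype difference of the brightest probe was 0.29 ± 0.88 log2 units. With 1 lymphoma left out at a time it ran from -0.27 to 0.87, and its sign turned without null 2 or without null 5.

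The 3 lymphomas with strong Rasgrf1 were the 3 with the lowest Cd81. They also had the highest Cd68, a lysosomal marker of macrophages, at 11.60 in null 2, 11.68 in null 5 and 11.74 in wildtype 2, against at most 7.54 in the other 9 lymphomas. Cd68 was picked for mention after its values were seen. None of the other 6 macrophage markers had its highest values in all 3 of these lymphomas, though some were high in 1 or 2 of them. The mean of all 7 markers was 7.59 in null 2, 6.78 in null 5 and 6.60 in wildtype 2, within a range of 5.65 to 7.59 in null and 5.70 to 6.66 in wildtype lymphomas. Without Cd68 the mean of the other 6 was 6.93 in null 2, the highest of the 12 lymphomas, but 5.96 in null 5 and 5.74 in wildtype 2, under the 6.19 of null 1 and the 6.69 of wildtype 1. Lgmn, a lysosomal protease of that list, was highest of all 12 in null 5, at 11.92, and lowest in wildtype 2, at 9.33. Adgre1 of the same list was highest in null 2, at 8.22, and read 6.55 in wildtype 2 and 5.14 in null 5. The part of macrophages in the Rasgrf1 values was not tested.

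**Figure D5:**
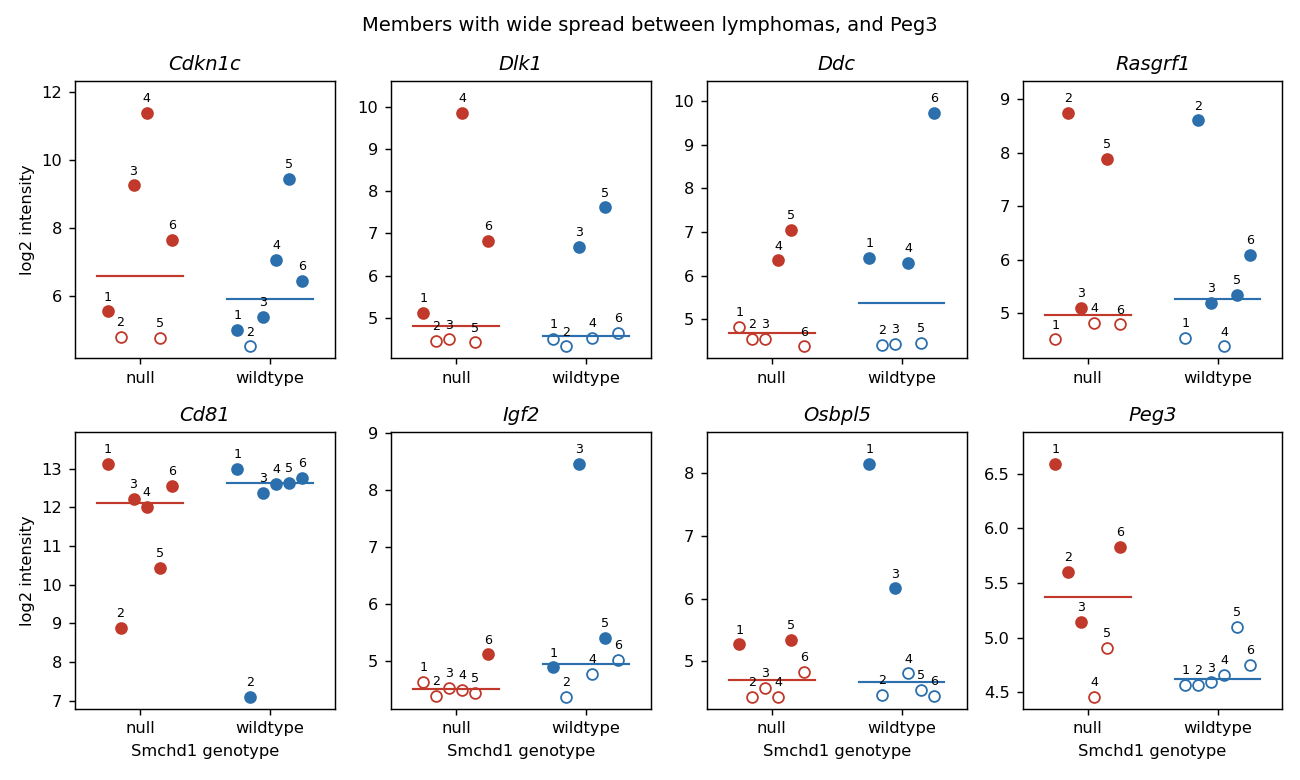
Log2 intensity of Cdkn1c, Dlk1, Ddc, Rasgrf1, Cd81, Igf2, Osbpl5 and Peg3 in 6 null (red, left) and 6 wildtype (blue, right) lymphomas, with replicate numbers, filled points where the probe was detected and a line at the median. Vertical scales differ between panels, and in every panel the genotypes overlap.

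The remaining members with detection on all arrays are genes of general cell functions. Gnas encodes the stimulatory G protein alpha subunit, and its brightest probe read 9.15, 10.41 and 11.50 in null lymphomas, against 9.48, 10.22 and 10.71 in wildtype lymphomas, a difference of 0.16 ± 0.36. 5 Gnas probes were detected, and 2 of them differed in sign from each other: ILMN_3075080 by 0.40 ± 0.24 and ILMN_1252926 by -0.53 ± 0.32, both with an adjusted p of 1.00 in limma's test over probes. Which Gnas transcripts these probes meet is not given in the files.

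H13, a signal peptide peptidase, read 9.08, 9.49 and 10.62 in null lymphomas, against 8.81, 9.72 and 10.80 in wildtype lymphomas, a difference of -0.13 ± 0.33. Blcap, whose intron holds Nnat, read 7.57, 8.79 and 9.29 in null lymphomas, against 8.28, 8.45 and 8.64 in wildtype lymphomas, a difference of 0.17 ± 0.26. The null lymphomas covered a wider range of Blcap than the wildtype lymphomas, which lay inside it. Nnat, a proteolipid of neurons and endocrine cells, was detected in 1 lymphoma of each genotype, by different probes, at no more than 5.29 in null and 5.51 in wildtype lymphomas.

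Copg2, a coat protein of COPI vesicles next to the undetected Mest, read 5.41, 7.12 and 7.70 in null lymphomas, against 6.28, 6.68 and 7.60 in wildtype lymphomas, a difference of -0.06 ± 0.42. Commd1, a regulator of copper handling and NF-kappaB, read 11.21, 11.63 and 11.88 in null lymphomas, against 10.74, 11.44 and 11.76 in wildtype lymphomas, a difference of 0.20 ± 0.21. Zrsr1, the paternally expressed splicing factor gene inside a Commd1 intron, was detected in 1 lymphoma of each genotype, null 1 at 5.32 and wildtype 2 at 4.94. The host gene was thus detected in every lymphoma and the gene inside it in 2.

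Impact, a paternally expressed regulator of translation on chromosome 18, read 6.99, 8.14 and 9.14 in null lymphomas, against 7.84, 8.50 and 9.09 in wildtype lymphomas, a difference of -0.39 ± 0.37. Inpp5f, a phosphoinositide phosphatase, read 7.88, 8.61 and 9.07 in null lymphomas, against 7.24, 7.98 and 10.04 in wildtype lymphomas, a difference of 0.33 ± 0.39. The value of 10.04 was in wildtype 1. A dimmer Inpp5f probe, detected on 5 arrays, read 4.63 there without detection and gave a difference of -0.15 ± 0.22. Both genes overlapped between genotypes.

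Among the dim single genes, Htr2a, a serotonin receptor, was detected in 1 null and 3 wildtype lymphomas. It read 4.49, 4.73 and 6.07 in null lymphomas, against 4.66, 4.92 and 5.81 in wildtype lymphomas, a difference of -0.12 ± 0.28. Slc38a4, an amino acid transporter, lay between 4.53 and 5.10 in null lymphomas and between 4.42 and 4.99 in wildtype lymphomas, a difference of 0.02 ± 0.17. The potassium channel gene Kcnk9 was detected in wildtype 5 alone, at 5.54, while the null lymphomas reached 4.97 without detection. Gab1, a docking protein of receptor tyrosine kinases, and Ppp1r9a, the actin-binding neurabin, were each detected in null 4 alone, at 5.97 and 5.91.

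Null 4 was often the highest lymphoma. Of the 31 members whose brightest probe was detected on some array, null 4 was the highest of the 12 lymphomas for 10, or 32.3%. It was the highest for 9.24% of the 12822 genes tested. Those genes needed detection on at least 3 arrays, so the shares rest on unlike filters. Cdkn1c, Dlk1 and Gnas were 3 of these 10. Grb10, Ppp1r9a and Gab1 were also among them, and these 3 entered the 31 only because null 4 itself was detected. For the other 4, null 4 led by little: Nap1l4 read 12.85 where the next lymphoma read 12.77, Commd1 11.88 where it read 11.86, Tssc4 8.07 where it read 8.04, and Copg2 7.70 where it read 7.60. Null 1 followed with 6 of the 31, or 19.4%, against 10.4% of the genes tested, and null 5 and null 6 were highest for 0. These counts describe single lymphomas and were not tested.

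The promoter table held 58 windows for 37 of the 49 listed genes. The members' windows held 0 to 40 CG dinucleotides with a median of 14, against a median of 6 over the 32851 windows of all genes. The median was 16.5 for members detected on all 12 arrays, 6 for those detected on 3 to 11, 12 for those on 1 or 2, and 14 for those on none. The E-box CACGTG, the sequence that MYC binds with MAX and which reads the same on both strands, was found in 4 of the 58 windows, or 6.9%, against 6.02% of all windows. The sequence GCCATNTT, known as a core bound by YY1 and repeated at the Peg3 control region, was searched on both strands and found in 2 windows, or 3.45%, against 3.91% of all windows. The 5 windows printed above held neither motif.

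Of 42 other imprinted genes outside the Snrpn cluster, 37 were on the array and 17 were tested. 0 passed the adjusted p of 0.05 in either direction, and the median difference was -0.050. Tnfrsf26, a gene of the TNF receptor family on chromosome 7, had the smallest p of the list. It was detected in 0 null and 4 wildtype lymphomas, with a difference of -0.70 ± 0.27 and an adjusted p of 1.00, and was the 1 gene of the list with an unadjusted limma p under 0.05. Tnfrsf26 passed the detection filter through wildtype lymphomas alone, so a difference in that direction was built into its selection and these values are a description. Its values lay between 4.36 and 4.68 in null lymphomas and between 4.45 and 6.12 in wildtype lymphomas, so the groups overlapped. ZFP264 followed with -0.24 ± 0.17.

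Of 18 genes that maintain imprints, such as the DNA methyltransferase Dnmt1 and the zinc finger corepressor Trim28, 13 were tested, 0 passed the adjusted threshold and 0 had an unadjusted limma p under 0.05. Their median difference was 0.0017. The smallest p-values belonged to Arid4a, with -0.27 ± 0.24, and the histone methyltransferase gene Ehmt2, with 0.12 ± 0.21. Of 14 genes of the insulin-like growth factor axis, 9 were tested and 0 passed, with a median of 0.074. Igfbp5, an IGF-binding protein, was the 1 gene of this list with an unadjusted limma p under 0.05, with a difference of 1.34 ± 0.60 and an adjusted p of 1.00. It was above 7 in null 2, null 3 and null 4, at 7.09, 7.84 and 7.48, and at 4.41, 4.86 and 4.51 in null 1, null 5 and null 6, against 4.35 to 5.06 in wildtype lymphomas, so the groups overlapped. Igfbp3 followed with 0.23 ± 0.23. The 3 lists thus held no call, as the members did.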

How the data were processed

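RNA of 12 lymphomas, 6 Smchd1 null and 6 wildtype, was hybridised to Illumina MouseWG-6 BeadChips. Each deposited intensity is the mean over a probe's beads on an array, exported unnormalized from GenomeStudio 1.6.0 per the file headers, with the bead number and bead SD in further deposited columns. The deposited detection values are a fraction, 1 minus the detection p-value, and the second deposited table gives the detection p-value itself with the same intensities. The log2 values deposited in the series matrix were matched to within 5e-09 by the steps used here. Per the submitters' processing notes, limma 3.12.1, R 2.15.1 and BeadStudio had been used.

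With limma 3.58.1 in R 4.3.3, intensities were corrected by normexp on 936 negative controls, 16 was added, and arrays were quantile normalized and put on the log2 scale. 18921 probes detected at p under 0.05 on at least 3 arrays were kept, and the brightest per gene gave 12822 genes. Null minus wildtype was fitted on all 12 arrays with lmFit and eBayes, with Benjamini-Hochberg adjustment over all genes or probes at 0.05. Correlation p-values came from 100000 permutations. The procedure was tested on simulated shifts. Of 30774 target names, 15991 matched a RefSeq symbol, 5826 a synonym and 887 a gene ID. Groups came from the sample titles. The number of arrays limits the precision. Members with detection on at least 3 arrays of a genotype were named with full values, and the others by counts and ranges, with the difference where they were tested. Of the 3 gene lists the 2 genes with the smallest p were named. Meg3, Cd68, Lgmn, Adgre1 and the genes of the closing observations were named outside that rule, after their values were seen. Of the cell type lists only genes beside a member's result were named. The members and lists were chosen with earlier results of these data known. The labels do not say whether replicate numbers pair the samples, and the main fit treated them as unpaired. The correlation of same-numbered lymphomas ran from -0.26 to 0.681. It was highest for numbers 1 and 2, at 0.67 and 0.681. Alternatives covered background, scaling, detection filter, probe choice, BeadChip, replicate block, array weights, prior, source table and omitted lymphomas.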

Additional observations from a re-analysis of the deposited data

Results flagged for a closer look

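In 13 of the 54 groups of 6 lymphomas examined, a single lymphoma lay far from the others by Dixon's criterion. Chance flags about 1 in 20 groups of unselected samples, but many groups here were examined because a single lymphoma was detected above an even floor, so that rate is no measure for these counts. In the log2 values that follow, the nearest other lymphoma of the same genotype is given after each. Among null lymphomas, null 4 stood apart for Ppp1r9a (5.91, nearest 4.74), Grb10 (7.57, nearest 4.78) and Gab1 (5.97, nearest 4.60). Null 6 stood apart for Igf2 (5.11, nearest 4.63), null 2 for the brighter Kcnq1 probe (6.36, nearest 5.03), null 1 for Zrsr1 (5.32, nearest 4.60) and null 3 for Htr2a (6.07, nearest 4.81). Among wildtype lymphomas, wildtype 4 stood apart for H19 (7.03, nearest 4.66), wildtype 3 for Igf2 (8.46, nearest 5.40) and wildtype 1 for the brightest Inpp5f probe (10.04, nearest 8.20). Wildtype 5 stood apart for Kcnk9 (5.54, nearest 4.72) and Htr2a (5.81, nearest 4.95). Cd81 was the single case with a low lymphoma, wildtype 2 at 7.09, where the nearest was 12.38.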

How the results depend on the processing

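Under 26 alternative settings, 0 members passed the threshold, and the smallest adjusted p of a member was 0.704. Of 583 values of the 23 members under these settings, 0 moved by over 1 SD and 48 changed sign. The SD is that between lymphomas of a genotype, a loose limit for members of wide spread. Cdkn1c ran from -1.11 with BeadChip 2 alone to 2.96 without counting as moved. For most members the settings that turned the sign included a single BeadChip alone. Tspan32 and Nap1l4 kept their sign in all 26, and Igf2 and Peg3 in the 24 that tested them. The counts over all genes moved more. Against 3 genes and 3 probes called, BeadChip 1 alone gave 1 gene and 1 probe, BeadChip 2 alone 0 genes and 0 probes, and leaving out replicates 1 and 2 of both genotypes 6 genes. Leaving out 1 lymphoma at a time gave 3 to 5 genes and 3 to 5 probes, with 5 of each without wildtype replicate 2. The BeadChip settings have fewer samples; the cause of the other moves was not tested. With the replicate block, 3 genes, 3 probes and 0 members were called; 2 of 6 lymphoma pairs correlated best with their own number. At a detection p under 0.01 the median number of members detected was 14.5 in null and 15 in wildtype lymphomas. In settings added after the data were seen, r of Cd81 and Tspan32 was 0.802 without background correction, 0.861 with median scaling and 0.807 without replicates 1 and 2 (permutation p = 0.014, n = 8). Probes near background have compressed differences.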

Other observations

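Igf2bp3, an RNA-binding protein of fetal cells that binds Igf2 mRNA, was picked from the growth factor list after its values were seen. It read 7.20, 4.48, 6.46, 10.96, 5.11 and 10.25 in null replicates 1 to 6, against 6.35, 4.33, 10.60, 9.55, 8.90 and 6.58 in wildtype replicates 1 to 6. The 4 lymphomas with high Dlk1, namely null 4, null 6, wildtype 3 and wildtype 5, were among the 5 highest for Igf2bp3, and wildtype 4, the H19 lymphoma, was the other. Igf1r, Igfbp4, Smoc1 and Pde4d were picked from the lists in the same way. Wildtype 4 had the highest Igf1r, at 8.07, and the highest Igfbp4, at 10.38, where the null lymphomas reached 7.21 and 5.78. Wildtype 6, the lymphoma with the highest Ddc, had the highest Smoc1 at 9.10 and the highest Pde4d at 7.61, where the null lymphomas reached 5.96 and 6.37. None of these genes passed the test between genotypes.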
